A study of Mus musculus with 249 samples.

Results

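Chromosome 1 (chr1) is the longest chromosome of the mouse. Its windows were taken as all rows of a table of 40 kb windows that lie on chr1 and begin at or after 3 Mb in the mm9 assembly, which gave 4855 windows of 68162 in the whole table. The table came from multiplex-GAM of 249 libraries of 46C cells, a line of mouse embryonic stem (ES) cells of strain 129/Ola with a GFP reporter knocked in at Sox1, grown with serum and LIF and moved to serum-free medium a day before harvest. No library differed in genotype or was given a drug, and the titles give 4 nuclear profiles per tube for every library, while the study states that a library held fewer on average. The libraries fell into 11 experiments by the way the profiles were handled. They were tests of reagent volumes in whole genome amplification (protocols a, b and c with 10, 11 and 10 libraries), of proteinase K (1 µl with 5 libraries, 2 µl with 6), of freezing after the lysis incubation (10 frozen, 11 unfrozen), of early freezing (12 early, 11 late), of 25, 23 or 20 PCR cycles (3, 5 and 4 libraries), of cresyl violet (16 stained, 10 unstained), of the amplification kit (11 large, 12 small), of propidium iodide, eosin and SYBR Gold (20, 18 and 10 libraries titled unstained), and a full collection of 54 libraries. The titles of the propidium iodide test name both staining and freezing. Libraries of the SYBR Gold test are titled unstained although their protocol describes a stain, the proteinase K volumes in the titles differ from those in the protocol, and the groups here follow the titles.

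Chromosomes of interphase nuclei occupy territories, so that points of one chromosome are on average closer to each other than points of different chromosomes. Within a territory, gene-rich and GC-rich segments tend to lie towards the nuclear interior, and gene-poor, AT-rich segments tend to lie at the nuclear lamina. GAM (genome architecture mapping) cuts nuclei into thin slices and records which windows are present in each slice. Windows that are near each other in the nucleus are caught by the same slice more often, and a long chromosome is rarely caught whole. A positive window is one in which the study's pipeline found enough reads in a library. Since a library pools several slices of diploid cells, it can hold pieces of several chr1 copies.

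Detection differed most at a few chr1 windows, and the sequences of both extremes are shown first because the results on these windows refer to what the genome assembly holds there. The typical chr1 window was positive in 47 of the 249 libraries (median, with quartiles of 42 and 53), against 50 for windows of the other autosomes. The window chr1:24600001-24640000 was positive in 127 libraries, the most of any on chr1, while its neighbours on either side were positive in 46 and 44. Among windows positive at least once, the least often positive with full sequence was chr1:95840001-95880000, at 8 libraries. The central 200 bases of each, from the plus strand of mm9 (NCBIM37), read as follows, with CpG dinucleotides in capitals.
chr1:24619901-24620100, most often positive: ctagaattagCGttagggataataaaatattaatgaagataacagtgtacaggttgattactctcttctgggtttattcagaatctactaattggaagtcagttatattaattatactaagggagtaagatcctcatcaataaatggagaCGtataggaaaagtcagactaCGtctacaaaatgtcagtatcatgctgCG
chr1:95859901-95860100, rarely positive: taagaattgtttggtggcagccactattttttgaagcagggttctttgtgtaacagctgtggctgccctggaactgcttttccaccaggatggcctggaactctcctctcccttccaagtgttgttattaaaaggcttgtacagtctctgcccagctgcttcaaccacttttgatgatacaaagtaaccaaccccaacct

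The first stretch has a GC content of 33.5% and 4 CpG, and the second has 46.5% and 0 CpG. Of the 200 bases of the first, 199 lie in exact words of 30 bases that the mitochondrial genome of the same assembly also holds, on either strand. Over its whole 40 kb, this window shared 4569 such words, which covered 4649 bases from position 24618374 to 24623023 and equal 28.5% of the mitochondrial genome of 16299 bases. Only 5 chr1 windows shared any word with mitochondrial DNA, and the next highest had 53 words and was positive in 42 libraries. The annotation places 2 protein-coding models, Gm10222 and Gm10925, in the most often positive window. By experiment it was positive in 20.0% (SYBR Gold test, 2 of 10 libraries) to 75.0% (propidium iodide test, 15 of 20). It was also positive in 3 of the 5 libraries with under 5% of all windows positive, in which 3.17% of chr1 windows were positive. The part of mitochondrial reads in these calls was not tested, since the table holds no reads.

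Several other windows at the top of the range lay around an assembly gap. Of 4855 chr1 windows, 13 were positive in 80 or more libraries (0.268%, against 0.367% of the windows of the other autosomes). Of these 13, 6 lay within 300 kb of the longest stretch without any positive call, chr1:85360001-87320000, which spans 49 windows or 1960 kb and consists of N alone in the assembly. The second most often positive window, chr1:85240001-85280000 at 116 libraries, lies 80 kb before this gap over C130026I21Rik. The next, chr1:87480001-87520000 at 111 libraries, lies 160 kb after it over Sp110 and Sp140, which encode nuclear body proteins of the Sp100 family. A run of 3 windows from 90080001 to 90200000, at 85, 107 and 90 libraries, holds part of the Ugt1a cluster, whose products conjugate glucuronic acid to bilirubin and drugs, and Hjurp, the chaperone that loads the centromeric histone CENP-A. A further pair at 173440001 to 173520000, at 92 and 85 libraries, holds Itln1, Cd244 and Ly9, and 1 window at 58640001 to 58680000, at 93 libraries, holds Fam126b and Ndufb3.

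At the other end, 61 chr1 windows (1.26%, against 1.24% on the other autosomes) were never positive, and 60 of them consisted of N over more than 50% of their length. The exception was chr1:111640001-111680000, which has no N and a GC content of 37.9% and was positive in 0 of 249 libraries. The chr1:184920001-184960000 window was positive in 7 libraries and is 95.5% N. The window chr1:95840001-95880000, which holds the gene model Gm7889 and no N, was positive in 8 libraries, and its neighbours were also low, with 26, 30 and 30 libraries in the 3 windows before it and 39 in the one after it. The chr1:24680001-24720000 window, at 10 libraries, is 83.4% N and lies 40 kb beyond the most often positive window, over Lmbrd1, a lysosomal cobalamin exporter.

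**Figure D1:**
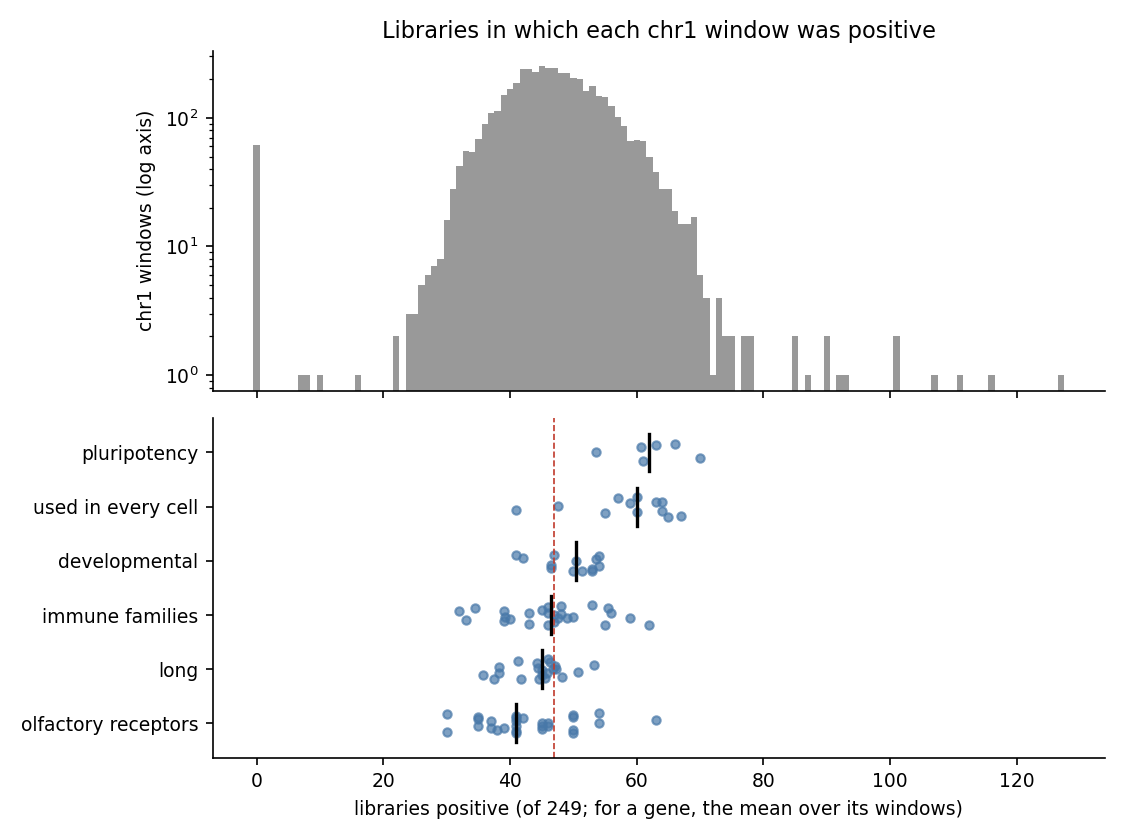
Number of chr1 windows (log axis) by the number of the 249 libraries in which they were positive, above, and the mean over each gene's windows for the gene lists, below. Each point is a gene, the black bar is the median of a list, and the dashed line is the chr1 window median of 47. The quartiles of the windows are 42 and 53, with 61 windows at 0 and 1 window at 127, and the pluripotency genes lie to the right of the dashed line.

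Genes of chr1 covered much of this range. In windows over the 1238 protein-coding genes of chr1, the median gene was positive in 51 libraries, and 860 of the 1238 lay above the chr1 window median of 47. All 6 pluripotency genes of the list lay above the chr1 window median, with a list median of 62 and a range from 53.5 to 70. Zfp281, a zinc finger factor that restrains the naive state, was positive in 70 libraries, and Lefty1 and Lefty2, secreted inhibitors of Nodal, in 66 and 63. Prdm14, a regulator of pluripotency and of germ cells, was at 61, Kdm5b, a histone H3K4 demethylase, at 60.7 over 3 windows, and Nr5a2, a nuclear receptor that can drive Pou5f1, at 53.5 over 4 windows. Genes that nearly every cell uses were similar, with a list median of 60 and 11 of 12 above the chr1 window median. Among them Ncl, which encodes nucleolin, was at 67, Eef1b2, a translation elongation factor, at 65, and Nop58, a core protein of small nucleolar RNPs, and Parp1, a DNA damage sensor, were both at 64. Hspd1 and Hspe1, the mitochondrial chaperonin pair, share 1 window at 60. The member below the chr1 median was Rpl31, a ribosomal protein gene, at 41. These levels are descriptions of chosen genes and were not tested.

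Developmental regulators, which are mostly silent or poised in ES cells, were nearer to the chromosome as a whole, with a median of 50.4 over the 13 of 14 genes that the annotation matched and a range from 41 to 54. Hlx and Prrx1, both homeobox genes, were at 54, and Ikzf2, an Ikaros family factor of lymphocytes, was at 41. The genes Wnt6, Ihh, Epha4 and Pax3, which lie in adjoining domains, were at 50, 47, 46.5 and 51.3. Of the 21 long genes, 5 lay above the chr1 window median, with a list median of 45.1. Cntnap5b, a neurexin family cell adhesion gene, was lowest at 35.8 over 19 windows, Erbb4, a neuregulin receptor of 1076 kb, was at 38.3 over 28 windows, and Smyd3, a lysine methyltransferase, was highest at 53.3 over 15 windows. The 26 immune family genes had a median of 46.5, from 32 at Ifi205 to 62 at Fcgr3, an Fc receptor. The 28 olfactory receptor genes had the lowest median, 41, and 7 of them lay above 47. All 7 lie in the cluster at chr1:94376258-94517578 and several share a window, while Olfr1414 in this cluster was at 46. Olfr1404 and Olfr218 share a window at 30, whereas Olfr1413, in another cluster, was at 63. The lists also differed in GC content, with a median of 45% for the developmental regulators, 44.7% for the pluripotency genes, 43.8% for the genes used in every cell, 40.2% for the immune families, 39.5% for the long genes and 38.6% for the olfactory receptors.

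Detection was on average higher in windows of higher GC content, with much scatter. The windows were put into 10 groups of rising GC content. Windows in the lowest group (GC 36%) were positive in 43.1 ± 6.9 libraries (SD over 480 windows), those in the fifth (40.1%) in 47.2, and those in the ninth (45.2%) in 51.8 ± 9.3. The highest group, at 48.3% GC, was at 51.4 and the eighth at 51.5. Over the 4794 windows that were positive at least once and hold sequence, Pearson's r of GC content with the number of libraries was 0.341 and Spearman's rho 0.387. Neighbouring windows share libraries and base composition, so these values are descriptions without a p-value. GC-rich windows also hold more genes, and a protein-coding gene overlapped 24.6% of windows in the lowest group and 82.3% in the highest.

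Windows with genes were detected more often than windows without. In an average library, 19.9% ± 13.4 (SD, n = 249) of the 2468 chr1 windows that overlap a protein-coding gene were positive, against 17.7% ± 12.5 of the 2387 that overlap none. The difference was 2.25 ± 0.24 percentage points (SE) and was above 0 in 182 of 249 libraries, which passed a sign-flip permutation test over libraries (adjusted p = 1.06e-05 over 19 autosomes, with the smallest p that the permutations can give before adjustment). The mean was above 0 in each of the 11 experiments, from 0.53 points in the PCR cycle test to 3.26 in the eosin test. Within the 10 groups of GC content, it was 1.15 ± 0.18 points and also passed (adjusted p = 1.9e-05). All 19 autosomes passed this test, and chr1 was within their range of 1.19 to 4.70 points.

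Regions of chr1 that fell below the genome were then sought in blocks of 5 Mb. Of 40 chr1 blocks, 6 were lower than the autosomes other than chr1 and 0 were higher (sign-flip permutation test over libraries, adjusted over 495 autosomal blocks), and at an unadjusted p under 0.05 there were 9, all of them lower. Over all autosomes, 8.69% of blocks were called lower and 7.07% higher, so chr1 had 6 of 43 lower blocks and 0 of 35 higher ones. Of these 6, 5 were AT-rich. They were chr1:25000001-30000000, chr1:65000001-70000000, chr1:95000001-100000000, chr1:100000001-105000000 and chr1:110000001-115000000, with 15.7% to 16.4% of windows positive in the average library against 19.9% elsewhere.

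The largest difference of the 5 was at chr1:100000001-105000000, where 15.7% of windows were positive, a difference of -4.25 ± 1.14 points (SE, adjusted p = 0.0038, above 0 in 80 of 249 libraries). Genes overlap 18.4% of its windows. The gene desert at chr1:110000001-115000000 had genes in 8% of its windows and a difference of -3.64 ± 1.17 points (adjusted p = 0.0199). The block from 65 Mb, which holds Erbb4 and Ikzf2, differed by -3.63 ± 1.14 points (adjusted p = 0.0164), the block from 25 Mb by -3.55 ± 1.18 (adjusted p = 0.0233), and the block from 95 Mb by -4.04 ± 1.20 (adjusted p = 0.0125). GC content of these 5 blocks was 36.8% to 39.5%, against 41.1% over all of chr1. Other chr1 blocks in the same GC range were not called, among them the block from 115 Mb (38.5% GC, -2.30 points, adjusted p = 0.239), the block from 140 Mb (37.6%, -1.24, adjusted p = 0.59) and chr1:145000001-150000000 (37.1%, -0.58, adjusted p = 0.839). Compared with windows of the other autosomes in the same of 10 groups of GC content, 0 of 40 chr1 blocks were called, against 7 higher and 17 lower of 494 over all autosomes. At an unadjusted p under 0.05 there were 4, and the block from 100 Mb differed by -2.67 (adjusted p = 0.191). Without the full collection, the blocks from 65 and 95 Mb were no longer called, with differences of -3.50 (adjusted p = 0.0628) and -3.51 points (adjusted p = 0.0764).

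The block with the lowest detection, chr1:85000001-90000000, was of another kind. Its difference was -6.36 ± 0.88 points (adjusted p = 0.000291), and 49 of its windows are the assembly gap described above, all of them never positive. Over windows positive in at least 25 libraries, the same block was 1.97 points above the other autosomes (adjusted p = 0.388). The highest chr1 block was chr1:180000001-185000000, which holds Parp1, Lefty1 and Lefty2, at 22.2% or 2.26 ± 1.28 points (adjusted p = 0.216). Between the 11 experiments, 0 of 40 chr1 blocks differed in this measure after adjustment (permutation test of the F statistic), and 0% of the 495 blocks of all autosomes did. Of the chr1 blocks, 6 had an unadjusted p under 0.05, the smallest being 0.005 at the block from 180 Mb.

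**Figure D2:**
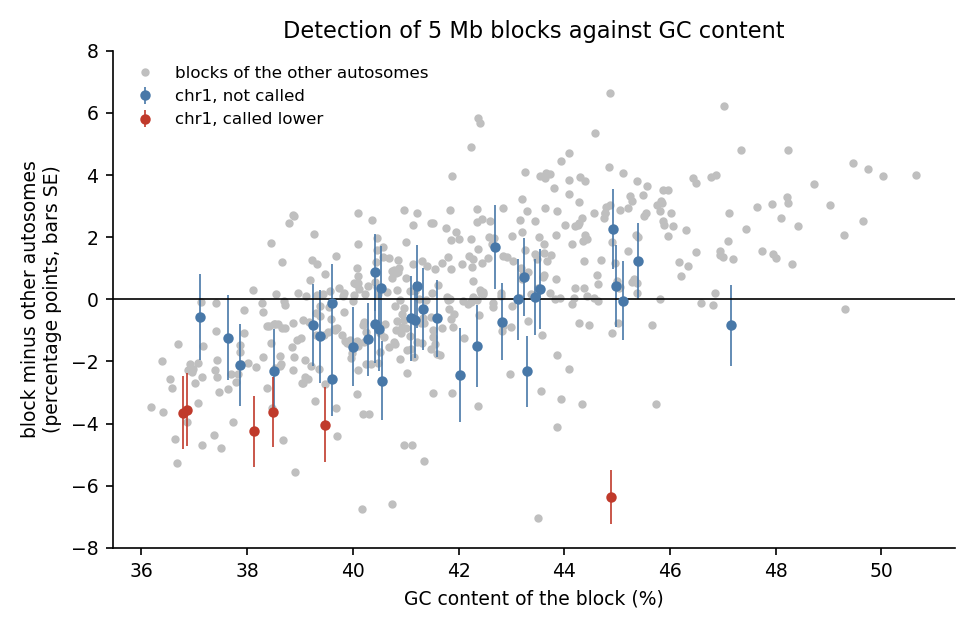
Difference in percentage points between each 5 Mb block and the other autosomes, plotted against the GC content of the block. Coloured points are the 40 chr1 blocks with SE over 249 libraries, in red where lower at an adjusted p under 0.05, and grey points are blocks of the other autosomes within the axis. Of the red points, 5 lie at 36.8% to 39.5% GC and the lowest, at 44.9% GC, is the block with the assembly gap.

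The next question was how much of the chr1 territory a library samples. On average, 18.8% ± 12.8 (SD, n = 249) of chr1 windows were positive in a library. The lowest was 0.0206%, which is a single window, in a library of protocol c, the median was 16.6%, and the highest was 70.2%, or 3406 windows, in a library of the propidium iodide test. The other autosomes together ranged from 3.59% to 48.8%, but single chromosomes spread over libraries much as chr1 did, with an SD of 12.5 points on chr2 and 13.1 on chr3. On chr1, 32 libraries were under 5% and 17 over 40%. The median library held 32.3 Mb of positive chr1 windows, from 0.04 to 136 Mb. In the mean, chr1 was 1.11 ± 0.68 points (SE) below the other autosomes of the same library and above them in 103 of 249 libraries (sign-flip permutation test, adjusted p = 0.29 over 19 autosomes). On the scale of a log2 ratio with 0.5 points added, chr1 was lower and passed (-0.38, adjusted p = 2.37e-05), and the means of all 19 autosomes were below 0 on that scale, from -0.57 to -0.10.

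The experiments differed in how much of chr1 they sampled. The mean was lowest in the test of freezing after incubation, at 13.9% ± 7.7 (n = 21), and highest in the propidium iodide test, at 27.9% ± 17.8 (n = 20), and the experiments differed (permutation test of the F statistic, p = 0.0018). The excess of chr1 over the other autosomes of the same library, which ranged from -5.55 points in the cresyl violet test to 4.05 points in the propidium iodide test, did not pass (F = 1.61, adjusted p = 0.313). Across the 249 libraries, chr1 and the other autosomes rose together, with r = 0.552 and rho = 0.508 (permutation p = 1e-05 for both, the smallest it can give), and r = 0.51 without the 2 libraries farthest from the median. Within experiments r was between -0.03 (proteinase K) and 0.69 (kit size), and after adjustment over the 11 experiments both r and rho passed in early freezing, the full collection, kit size, propidium iodide and reagent volumes. In freezing after incubation r passed and rho did not (adjusted p = 0.0115 and 0.063, permutation test), and r fell from 0.614 to 0.358 without its 2 farthest libraries, while in the eosin test rho passed and r did not (adjusted p = 0.0359 and 0.105).

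**Figure D3:**
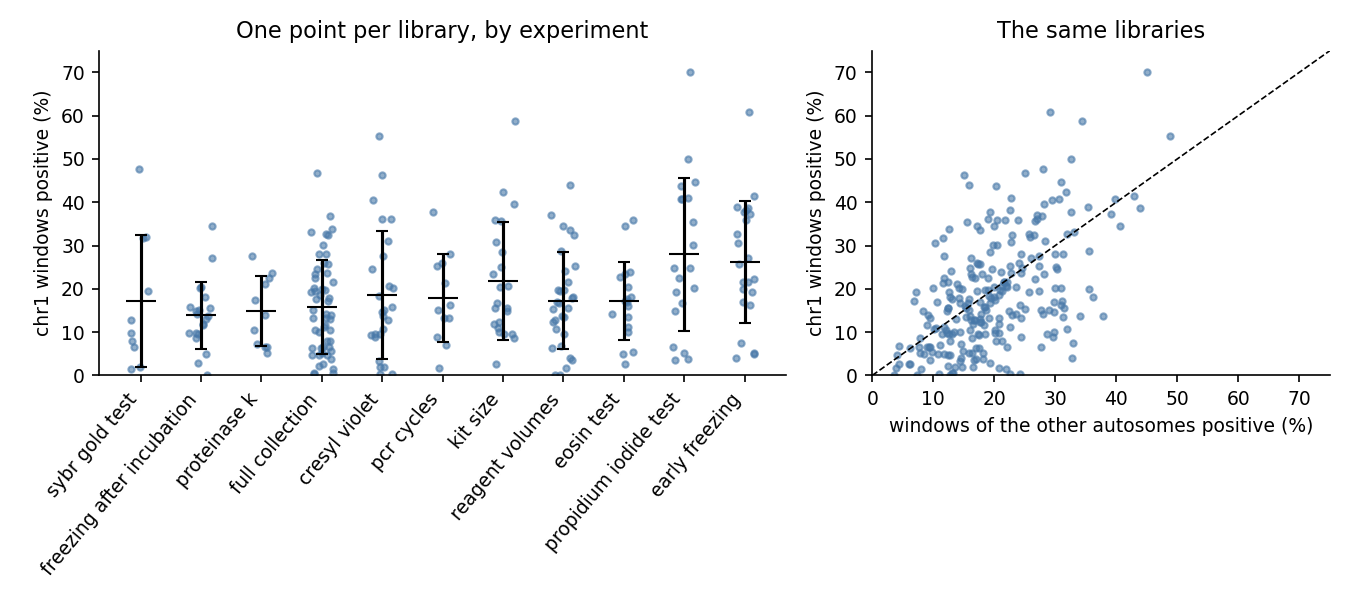
Percent of chr1 windows positive in each library by experiment, with the mean and SD in black (left), and the same percent against that of the other autosomes (right, dashed line at equal values). Libraries spread from 0.0206% to 70.2% on chr1 and from 3.59% to 48.8% on the other autosomes, with 103 of 249 above the dashed line.

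A library sampled chr1 in many short pieces spread over nearly its whole length. The median distance from the first to the last positive window was 190.4 Mb, and the median library reached 33 of 40 blocks of 5 Mb, while 28 libraries reached all 40. In the median library, 2 blocks had over 50% of their windows positive. The longest stretch without a positive window was 15.8 Mb in the median library and 129 Mb at most, while the lowest value, 1.96 Mb, is the assembly gap, below which no library can go. Over all libraries there were 76422 runs of adjacent positive windows, 46.7% of them of a single window, and the median run was 80 kb. The longest run of the median library was 0.84 Mb, and the longest of all was 8.64 Mb. Only 433 runs reached 1 Mb, and they held 6.75% of the positive calls.

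**Figure D4:**
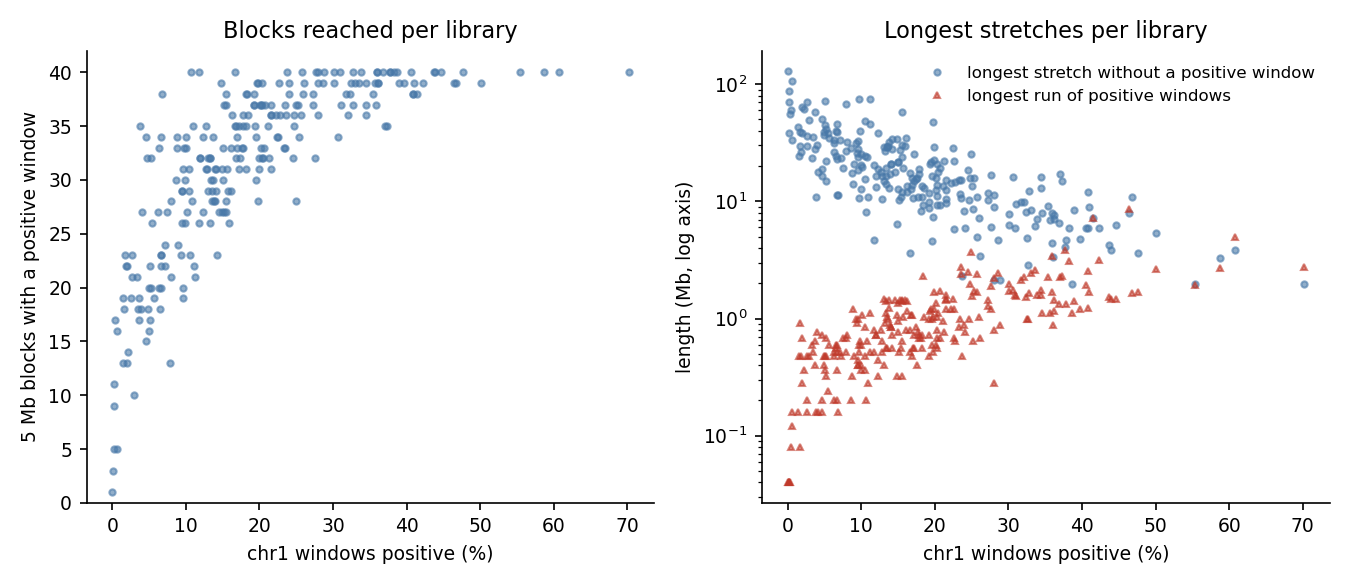
For each library, the number of 5 Mb blocks of chr1 that hold a positive window (left), and the longest run of positive windows and the longest stretch without one in Mb (right, log axis), both against the percent of chr1 windows positive. The blocks reached rise to 40, and the longest empty stretch falls from 129 Mb to 1.96 Mb as the percent rises, where the length of the assembly gap sets the lower end.

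The mean run on chr1 was 113.5 ± 43.1 kb (SD, n = 249). It was close to that of the chromosomes next in length, with differences of -3.52 ± 2.47 kb from chr2 (adjusted p = 0.234) and -2.16 ± 2.63 kb from chr3 (adjusted p = 0.416). Against the pooled runs of all other autosomes, chr1 was 7.32 ± 1.98 kb shorter, and longer in 101 of 249 libraries (sign-flip permutation test, adjusted p = 0.00075). Against a pooled rest, 18 of the 19 autosomes had shorter runs, from -14.3 to 2.97 kb, and against the mean of the other autosomes' own mean runs chr1 was 0.71 ± 1.94 kb shorter (p = 0.713). Divided by the mean run of windows placed independently at the same percent positive, chr1 differed from the pooled rest by -0.16 ± 0.03 in this ratio (adjusted p = 3e-05), from chr2 by -0.03 ± 0.04 (adjusted p = 0.54) and from chr3 by -0.02 ± 0.04 (adjusted p = 0.638). Both alternatives were chosen after seeing the data. How far a chromosome departs from the rest of its library was measured as the size of the difference between its percent and that of the autosomes beyond chr1, chr2 and chr3. It averaged 8.48 points on chr1, 7.86 on chr2 and 8.00 on chr3, and chr1 exceeded the others by 0.62 ± 0.53 and 0.49 ± 0.55 points (SE, n = 249), which did not pass (adjusted p = 0.378 for both).

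Run length differed between experiments (F = 6.97, p = 0.0001, the smallest that 10000 permutations can give). The longest mean runs were in the unstained libraries of the cresyl violet test, at 163 ± 73.5 kb (n = 10), and of the propidium iodide test, at 156 ± 45.8 kb (n = 20), and the shortest were with protocol b, at 82.3 ± 22.3 kb (n = 11). Within experiments, none of 11 contrasts between arms passed after adjustment, and 1 had an unadjusted p under 0.05. It was the kit, with 86.9 ± 47 kb for large kits (n = 11, from 57.1 to 214 kb) against 138 ± 28.6 kb for small kits (n = 12, from 90.4 to 206 kb), which overlap (difference -50.7 kb, permutation p = 0.0048, adjusted p = 0.0528). Large kits also had fewer chr1 windows positive, 17.3% against 25.8%, and the part of this in the run length was not tested.

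Linkage along chr1 was measured over the 4785 windows positive in at least 25 libraries as D′, the normalized linkage, which is the excess of joint detection of 2 windows over the product of their frequencies, divided by the largest excess these frequencies allow. A negative excess is divided by the largest shortfall that the frequencies allow. Linkage fell steeply, then slowly. Adjacent windows had a mean D′ of 0.627 ± 0.009 (delete-one jackknife SE over 249 libraries). At separations over 1 and up to 2 Mb it was 0.294 ± 0.010, over 4 and up to 10 Mb 0.177 ± 0.012, over 20 and up to 50 Mb 0.135 ± 0.014, over 50 and up to 100 Mb 0.0969 ± 0.016, and over 100 and up to 150 Mb 0.0662 ± 0.018. Pairs of a chr1 window with a window of another autosome had a D′ of 0.0109 ± 0.012. D′ depended on the libraries used. In the full collection alone it was -0.134 for these pairs and 0.0422 over 10 and up to 20 Mb. The correlation of detection within that collection was 0.0333 and 0.105. Without libraries over 30% coverage, D′ was -0.0291 and 0.138. Above the D′ with other autosomes over all libraries, linkage fell to 50% of its 40 kb value by 1200 kb. Of that value, 20.1% was left over 20 and up to 50 Mb.

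Joint detection was also read as a share of windows within each library, a different measure. Where a window was positive, the window 40 kb away was positive in the same library in 60.2% ± 15.8 of cases (SD, n = 244 libraries), against 19.2% for any chr1 window in these libraries. The window 1 Mb away was positive in 36.1% ± 13.4 and the window 10 Mb away in 22.7% ± 13.5 (243 libraries), against 19.3% for any chr1 window. At 50 Mb the share was 19.5%, with 19.6% for any chr1 window of the libraries that could be used. Farther out it was 20.4% against 20.0% at 100 Mb (232 libraries) and 22.3% ± 17.7 against 21% at 150 Mb (213 libraries). Libraries with few positive windows dropped out of this measure at long separations.

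Linkage within chr1 exceeded linkage with other chromosomes out to 150 Mb. To keep differences between experiments out, this was tested on the correlation of detection within each experiment, with an exact sign-flip test over the 11 experiments. Of 12 ranges of separation, 11 passed. At 40 kb the correlation within chr1 exceeded that with other autosomes by 0.552 ± 0.143 (SD over 11 experiments, adjusted p = 0.0013, above 0 in 11 of 11). Over 20 and up to 50 Mb the excess was 0.0861 ± 0.0398 (adjusted p = 0.0013, 11 of 11). Over 100 and up to 150 Mb it was 0.0323 ± 0.0330 (adjusted p = 0.00426, 10 of 11). Over 150 Mb, which joins the 2 ends of the chromosome, it was 0.0130 ± 0.0367, above 0 in 5 of 11 experiments, and did not pass (adjusted p = 0.273). The smallest p that 11 experiments can give is 0.000977 before adjustment.

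The experiments differed in level. The correlation of adjacent chr1 windows was between 0.412 in the proteinase K test and 0.901 in the propidium iodide test, and that over 50 and up to 100 Mb between 0.0234 in the eosin test and 0.211 in the propidium iodide test. In the propidium iodide test the correlation over 150 Mb was 0.160 and that with other autosomes 0.0734, the highest of the 11 for both.

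**Figure D5:**
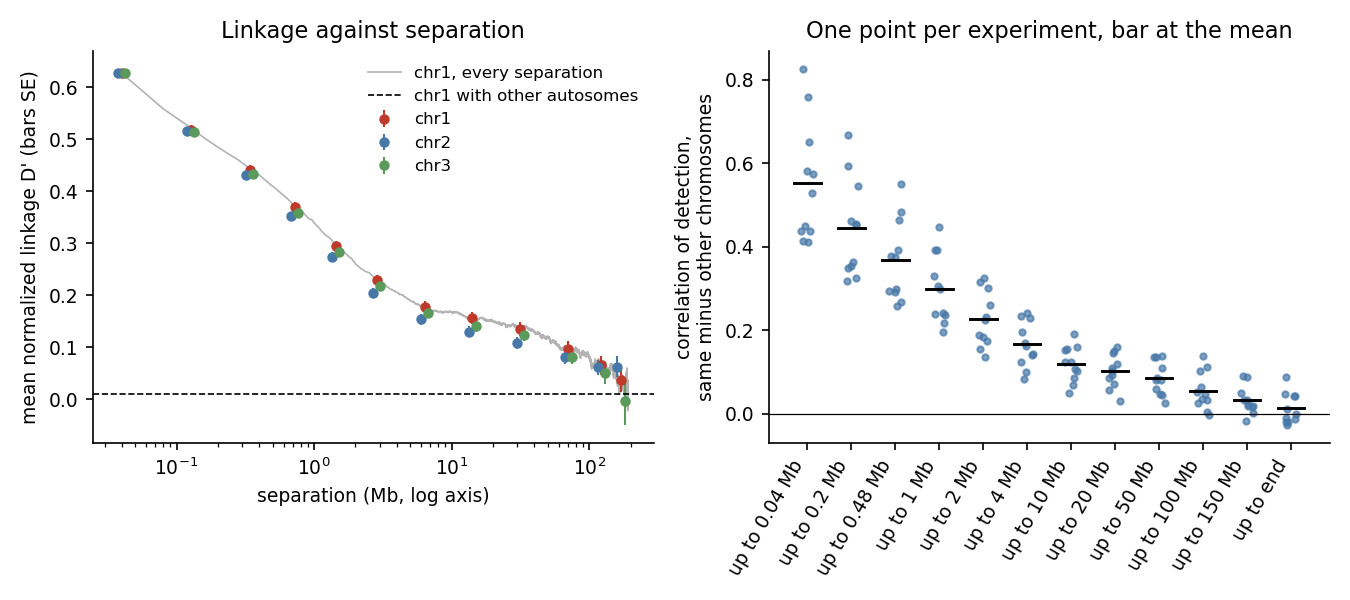
Mean normalized linkage D′ against separation (log axis) on chr1, chr2 and chr3, with jackknife SE over libraries, the grey line for every chr1 separation and the dashed line for chr1 with other autosomes at 0.0109 (left), and the correlation of detection within chr1 minus that with other autosomes for each of 11 experiments and 12 ranges of separation (right). On chr1, D′ falls from 0.627 at 40 kb to 0.0372 over 150 Mb, and all 11 experiments are above 0 up to 50 Mb.

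The decay on chr1 was close to that on chr2 and chr3. At 40 kb D′ was 0.627 on all 3 chromosomes. Over 10 and up to 20 Mb it was 0.156 ± 0.012 on chr1, 0.130 ± 0.011 on chr2 and 0.141 ± 0.012 on chr3. In the exact test over experiments, none of 24 differences passed after adjustment, and 2 had an unadjusted p under 0.05, both against chr2 (a correlation difference of 0.0259 ± 0.0363 over 10 and up to 20 Mb, p = 0.041, and of 0.0315 ± 0.0432 over 20 and up to 50 Mb, p = 0.0381). Both have an adjusted p of 0.492. Beyond 150 Mb, chr1 was at 0.0372 ± 0.022, chr2 at 0.0630 ± 0.020 and chr3 at -0.0039 ± 0.045.

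Windows of like GC content were compared with windows of unlike GC content, which addresses whether chr1 folds into GC-rich and GC-poor compartments that can be seen here. The 1593 chr1 windows of highest GC content (45.3% on average) and the 1595 of lowest (37.5%) were used. Over 20 and up to 50 Mb, pairs of the same class correlated more than mixed pairs by 0.0075 ± 0.0107 (SD over 11 experiments, adjusted p = 0.0234, above 0 in 9 of 11), with 0.130 between 2 GC-rich windows, 0.117 between 2 GC-poor windows and 0.116 in mixed pairs. The other 3 ranges did not pass (0.0035 over 10 and up to 20 Mb, 0.0024 over 50 and up to 100 Mb and -0.0040 over 100 Mb). With windows sorted by genes rather than GC content, the one range that passed fell to 0.0015 (adjusted p = 0.435). At 4 shorter ranges from 0.5 to 10 Mb, added after seeing the data, none passed, and the differences were 0.0048 to 0.0097.

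Large-scale linkage blocks were sought in the map of 1 Mb bins after the mean at each separation was subtracted. The first principal component held 19.9% of the variance and had the same sign in all 192 bins, so it did not divide chr1 into blocks of opposite sign. Its 2 blocks, chr1:3000001-85000000 and chr1:87000001-197000000, are parted by the assembly gap. Over the bins it correlated at r = 0.412 with the mean number of positive libraries, 0.216 with GC content and 0.189 with the share of gene windows. The second component was used after seeing that the first kept one sign. It held 9.57% of the variance and changed sign often, giving 29 blocks with a median of 4 Mb. Its longest were chr1:5000001-60000000 (55 Mb, positive), chr1:138000001-155000000 (17 Mb, negative) and chr1:156000001-172000000 (16 Mb, negative). Between the second components of the full collection and of the other libraries, which share no library, the size of r was 0.146 over the 192 bins, so these blocks are a description of the pooled libraries. The whole map of bins over 10 Mb apart correlated at r = 0.121 between the full collection and the other libraries, over 16490 pairs of bins that share windows. For bins up to 10 Mb apart r was 0.0441 (1846 pairs), and for the first component it was 0.101 over bins.

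The highest pairs were taken from 15544 pairs of 1 Mb bins over 10 and up to 150 Mb apart, among those more than 1 SD above the mean of their separation both in the full collection and in the other libraries. The highest was chr1:108000001-109000000 with chr1:122000001-123000000, 14 Mb apart, with a D′ of 0.293 ± 0.040 against a mean of 0.153. The first bin holds Bcl2, an inhibitor of apoptosis, and part of the Serpinb cluster, and the second holds En1, a homeobox gene of the midbrain and hindbrain. The bins beside them, chr1:107000001-108000000 with Tnfrsf11a, the RANK receptor, and chr1:123000001-124000000 with Insig2 and Ddx18, were also among the 4 pairs named, at 0.270 ± 0.036 against 0.155. The others were chr1:117000001-118000000 in Cntnap5a with chr1:148000001-149000000 (0.272 ± 0.045 against 0.138), and chr1:60000001-61000000 with Cd28 and Ctla4, a pair of T cell receptors of opposite effect, with chr1:93000001-94000000 with Per2 and Hdac4 (0.266 ± 0.037 against 0.138). These pairs were chosen as the highest, so their values are a description and carry no test.

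Over shorter distances, linkage was described block by block, with no test of the differences between blocks. Within 39 blocks of 5 Mb, the mean D′ of pairs 1 to 4 Mb apart, a measure added after seeing the data, had a median of 0.255 and was lowest at chr1:180000001-184920000, at 0.211 ± 0.022. The last block, chr1:195000001-197195432, was at 0.359 ± 0.034 and the block with the gap at 0.353 ± 0.035, but they hold 55 and 76 usable windows and a different mix of separations, so they cannot be ranked with the rest. Among the other blocks the highest was the gene-poor chr1:145000001-150000000, at 0.346 ± 0.031. The median SE of a block was 0.027. Block linkage showed little relation to GC content (r = -0.10) or to the share of windows with genes (r = -0.11) over these 39 blocks, which share libraries.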

How the data were processed

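Nuclear profiles of 46C cells were microdissected, amplified and sequenced. Per the methods, the authors aligned reads to mm9 with Bowtie2 (version 2.1 per the submitters' processing notes) and called a 40 kb window positive at 4 or more reads with GAMtools. The deposited values are calls of 0 or 1, so the read depth is unknown, no interval based on depth is given, and a 0 can mean absence or too few reads. All 249 columns matched a library, and groups follow the titles. The study describes the libraries as a collection from a biological replicate of the cells, so p-values measure the spread between libraries, which may be technical.

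The members, gene lists and tests were chosen with earlier results of these data known. GC content came from NCBIM37, whose chromosome lengths equal those of the table, and genes from GENCODE vM1. Tests were two-sided. Differences within libraries were tested by random sign flips over libraries (100000 resamples), arms with a permutation test of means (exact where an arm held under 10 libraries), experiments with a permutation test of F (10000 resamples), and linkage with an exact sign-flip test over 11 experiments. Benjamini-Hochberg adjustment was used with a threshold of 0.05. The text names the 3 most and 3 least often positive windows among those positive at least once, the longest stretch never positive, each chr1 block called, the longest linkage blocks and 4 of the 5 highest bin pairs, limited to 150 Mb (the other is not reported here). Scripts (Python 3.11.15, numpy 2.4.6, scipy 1.17.1, numba 0.67.0) were tested on simulated data.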

Additional observations from a re-analysis of the deposited data

Results flagged for a closer look

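One library stood apart from its group on chr1. In the reagent volume test with protocol c (n = 10), replicate 6 had a chr1 percent that was 28.8 points under that of its other autosomes (-28.8), against -7.83 for the next lowest and a group median of -0.88. It was the only such value in 27 combinations of group and measure, of which chance marks about 1 in 20.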

How the results depend on the processing

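Of 230 alternatives, 194 kept the direction and the side of the threshold or moved within the error, and 18 were chosen after seeing the data. As a log2 ratio with 0.5 points added, chr1 was below the other autosomes by -0.38 and passed (adjusted p = 2.37e-05), and on this scale all 19 autosomes had a mean below 0, from -0.57 to -0.10. The cause was not tested. The chr1 blocks called lower became 0 within 10 groups of GC content, 10 of 98 with 2 Mb blocks (101 of 1220 over all autosomes) and 2 of 20 with 10 Mb blocks (20 of 248), and within GC groups the 5 AT-rich blocks were at -3.01 to -1.46 points. The block from 85 Mb turned to 1.97 points over windows positive in at least 25 libraries and to 0.98 within 10 groups of GC content. By the median run, chr1 was 0.72 kb longer than chr3 and -0.56 kb from the other autosomes, and by their own mean runs -0.71 kb. By medians, protocol b exceeded protocol a by 0.99 kb and frozen libraries were -2.45 kb from unfrozen ones. Leaving out 1 library at a time, mean runs differed by -28.4 to -14.0 kb for 20 against 23 PCR cycles, by -42.3 to -7.32 kb for 20 against 25, by -19.8 to 15.2 kb for 23 against 25 (the highest without replicate 2 of the 25 cycle libraries), and by 0.70 to 9.63 kb for proteinase K, none of which passed (lowest adjusted p = 0.275). Linkage within chr1 exceeded that with other autosomes at 11 of 12 ranges under every alternative run.

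With a plain correlation in place of D′, linkage was 0.584 at 40 kb, 0.334 over 0.5 and up to 1 Mb, 0.140 over 10 and up to 20 Mb and 0.0392 with other autosomes. D′ itself in the full collection alone was 0.638, 0.349, 0.0422 and -0.134 in the same order, with -0.0913 over 150 Mb. The correlation of detection within that collection was 0.0333 with other autosomes. Without libraries over 30% coverage, D′ was 0.358 over 0.5 and up to 1 Mb, 0.138 over 10 and up to 20 Mb, 0.00443 over 150 Mb and -0.0291 with other autosomes. D′ with other autosomes thus moved with the libraries used, and the cause was not tested. With gene classes, the excess of like pairs was 0.0015 over 20 and up to 50 Mb and 0.00018 over 100 Mb. Linkage blocks numbered 4 with a median of 54.5 Mb in the full collection alone, where only 0.521% of the bins had a positive sign. By the second component they numbered 29 with a median of 4 Mb. No paired analysis was possible because replicate numbers only name libraries. Calls without read depth limit every rarely positive window, and the assembly gap limits the block from 85 Mb.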
